A study of Mus musculus with 4 samples.

Results

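Long noncoding RNA (lncRNA) loci were the 502 rows typed lncRNA that stood in both deposited expression tables with the same gene name and position, of 11822 such rows in all. Averaged over all 4 libraries, 490 of them reached 1 RPKM, and these were tested beside 10027 protein_coding rows among 11757 rows. The other 12 loci had means of 0.806 to 0.979 RPKM, and none of their values exceeded 1.70 RPKM. Rows typed lincRNA (148), antisense (304), TEC (203) and bidirectional_promoter_lncRNA (11) were not members.

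Polyadenylated RNA was sequenced from Mettl3KO and Mettl3WT dendritic cells, with 2 libraries per genotype from 2 pairs of littermates, called pair 1 and pair 2. All cells were grown from the bone marrow of 6-week C57BL/6 mice in GM-CSF (10 ng/ml) and IL-4 (1 ng/ml), selected on CD11c beads and matured by 24 h of LPS at 100 ng/ml. Mettl3KO mice carried floxed Mettl3 alleles, whose deletion removes early exons, with a CD11c-Cre transgene that acts in CD11c-expressing cells. Mettl3WT mice were littermates that the study gives as carrying the floxed alleles, with no transgene in their name. An effect of the transgene thus cannot be told apart from that of the deletion. RPKM counts reads per kilobase of gene relative to the depth of a library, and 1 RPKM stood for 30.9 to 35.3 reads per kilobase in these libraries. A ratio below is the log2 of (RPKM + 1) in Mettl3KO over (RPKM + 1) in Mettl3WT, which understates the change of loci at low levels. With 1 library per genotype in a pair, a single ratio has no replicate check, and tests rest on 2 pairs.

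Facts of the whole series bear on every locus below. Mettl3 itself had 4.59 and 4.39 RPKM in Mettl3KO cells of pairs 1 and 2, against 5.31 and 5.10 RPKM in Mettl3WT cells, over a gene model that also counts the exons left in place (log2 change -0.18, SE 0.21). All 7 dendritic cell markers looked at were present, and their summed level was 5546 and 4795 RPKM in Mettl3KO against 6198 and 8723 RPKM in Mettl3WT. The 8 granulocyte markers listed, of 9 looked at, summed to 5514 and 149.6 RPKM in Mettl3KO, against 2382 and 3031 RPKM in Mettl3WT, so they were higher in Mettl3KO in pair 1 and lower in pair 2. The second table lists 3 of them and leaves out Ngp, Ltf, Elane, Mpo, Ly6g and Retnlg. The 8 monocyte and macrophage markers summed to 5226 and 16150 RPKM in Mettl3KO, against 4313 and 11280 RPKM in Mettl3WT. T cell markers summed to 4.30 RPKM in Mettl3KO and 4.04 RPKM in Mettl3WT of pair 1, B cell and erythroid markers to less than 1 RPKM each, and none of the 9 was listed in pair 2. In pair 1, Xist was at 37.8 RPKM in Mettl3KO and 0.0502 RPKM in Mettl3WT, and the Y-linked gene Ddx3y was at 0.0243 RPKM in Mettl3KO and 29.1 RPKM in Mettl3WT. The Y-linked genes Uty, Kdm5d and Eif2s3y were likewise higher in Mettl3WT of pair 1. Effects of sex and of genotype thus cannot be told apart in pair 1. None of these sex-linked genes was listed in pair 2, where every row listed exceeds 1 RPKM in both libraries. A gene expressed in only 1 library of pair 2 would be left out there. The sex of the pair 2 libraries was thus not seen, and its effects cannot be told apart from those of genotype either. The part of marker and sex differences in the changes of lncRNA loci was not tested.

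lncRNAs are transcripts that carry no long open reading frame. Some act as scaffolds of nuclear bodies, some are the precursors from which small nucleolar RNAs (snoRNAs) or microRNAs are cut, and many are transcribed from the promoter of a coding gene in the opposite direction. m6A, the methyl mark placed by Mettl3, is carried by several of them, Malat1 among them, as well as by mRNA. Mature dendritic cells express many LPS-induced lncRNAs, of which Mir155hg, the precursor of miR-155, is a widely studied example.

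Sequences that bear on the results are shown first, all taken from RefSeq (build GRCm38.p6, written 5′ to 3′). A window from 250 bases before to 50 bases after the annotated start was held for 362 of the 502 loci. The first pair of windows belongs to AV051173, the locus with the lowest p-value, and to Prdx1, the gene for the antioxidant enzyme peroxiredoxin 1, which starts inside AV051173 on the other strand. Their windows cover chr4:116685973-116686272 on the minus strand and chr4:116685349-116685648 on the plus strand. Capitals mark a match to TGACNNNGC on either strand, the core of the antioxidant response element bound by NRF2.
AV051173: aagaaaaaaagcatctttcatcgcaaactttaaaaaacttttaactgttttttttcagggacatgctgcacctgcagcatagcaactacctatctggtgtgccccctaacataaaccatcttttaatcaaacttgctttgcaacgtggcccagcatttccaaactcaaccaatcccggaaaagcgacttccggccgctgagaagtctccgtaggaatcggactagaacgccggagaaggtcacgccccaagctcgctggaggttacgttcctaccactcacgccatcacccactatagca
Prdx1: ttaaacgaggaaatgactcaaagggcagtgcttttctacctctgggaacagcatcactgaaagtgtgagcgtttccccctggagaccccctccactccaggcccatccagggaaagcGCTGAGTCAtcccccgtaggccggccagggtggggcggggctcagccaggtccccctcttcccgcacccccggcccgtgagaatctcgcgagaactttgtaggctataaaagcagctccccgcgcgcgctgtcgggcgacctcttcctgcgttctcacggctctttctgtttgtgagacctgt
The match before Prdx1 covers chr4:116685466-116685474, within the span of AV051173. The window of AV051173 itself held no match, which says only that these letters are not in that window. The motif was found in 17.38% of the 420 windows of lncRNA loci and in 12.39% of all 32851 windows, so a match is common.

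The next set shows the starts of snoRNA host genes, from 10 bases before to 20 bases from the start, because several of these genes are known to begin with a run of pyrimidines, as the mRNAs of ribosomal proteins do. Capitals mark the unbroken run of C or T from the first transcribed base.
Gas5: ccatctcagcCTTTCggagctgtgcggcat
Snhg8: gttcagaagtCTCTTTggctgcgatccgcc
Snhg12: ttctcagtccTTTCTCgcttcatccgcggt
Snhg7: gatgctcggcCTCTCggcagccatggcggc
Snhg1: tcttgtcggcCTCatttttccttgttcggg
Zfas1: tgcgccccgggcggccgcaggtctcggctg
Of 12 hosts with a window, 5 had an annotated start whose first 5 transcribed bases were all C or T (Gas5, Snhg7, Snhg8, Snhg12 and Snhg17). Over all windows, each counted on its own, the share was 4.44%, while a gene counts here by any of its starts. Of 68 coding genes with a window whose names begin with Rpl or Rps and a digit, 16 had such a start. That name rule is not limited to ribosomal proteins. Gas5 and Snhg17 each have a further annotated start without such a run, and Zfas1 has none in the window held.

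The last set gives mature microRNAs encoded within the lncRNA loci, with the seed (bases 2 to 8) in capitals.
mmu-miR-155-5p: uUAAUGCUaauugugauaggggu
mmu-miR-223-3p: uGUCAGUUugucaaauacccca
mmu-miR-22-3p: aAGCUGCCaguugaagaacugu
mmu-miR-15a-5p: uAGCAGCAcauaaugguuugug
mmu-miR-16-5p: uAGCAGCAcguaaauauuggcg
They lie inside the deposited positions of Mir155hg (miR-155), F630028O10Rik (miR-223), Mir22hg (miR-22) and Dleu2 (miR-15a and miR-16, which share their seed). The values below are those of the host transcripts, and the microRNAs were not measured in these libraries.

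As a class, lncRNA loci varied more between the libraries of a pair than protein_coding rows of similar RPKM, in both directions. Their medians lay near 0. The median ratio was 0.02 in pair 1 and -0.01 in pair 2 for the 490 lncRNA loci, against -0.04 and -0.07 for protein_coding rows weighted to the same bands of mean RPKM. The SD of the ratio over loci was 0.33 in pair 1 and 0.55 in pair 2 for lncRNA loci, against 0.26 and 0.40 for the weighted protein_coding rows. lncRNA loci were also at lower levels, with a median of 3.83 RPKM against 10.5 RPKM for protein_coding rows, which is why the bands were used. The bands match RPKM and not the number of reads, which at equal RPKM is lower for a shorter transcript. The median span of lncRNA loci was 5.18 kb, against 21.6 kb for protein_coding rows. The part of read number in the wider spread was not tested.

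A ratio of (RPKM + 1) of at least 1.5-fold was counted in each pair. In pair 1, 20 lncRNA loci (4.08%) were that much higher in Mettl3KO, against 1.70% of weighted protein_coding rows and 2.57% of all rows tested. In the same pair, 14 loci (2.86%) were that much lower, against 1.36% of weighted protein_coding rows and 1.86% of all rows. Over all bands the lncRNA shares were thus the larger ones on either side. In pair 2, 53 loci (10.8%) were at least 1.5-fold higher in Mettl3KO, against 3.97% of weighted protein_coding rows and 6.46% of all rows. The 80 loci (16.3%) that were at least 1.5-fold lower compare with 7.64% of weighted protein_coding rows and 10.9% of all rows. These shares are descriptions of 1 library against 1 library, and the granulocyte and dendritic cell markers given above differ most between the libraries of pair 2.

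**Figure D1:**
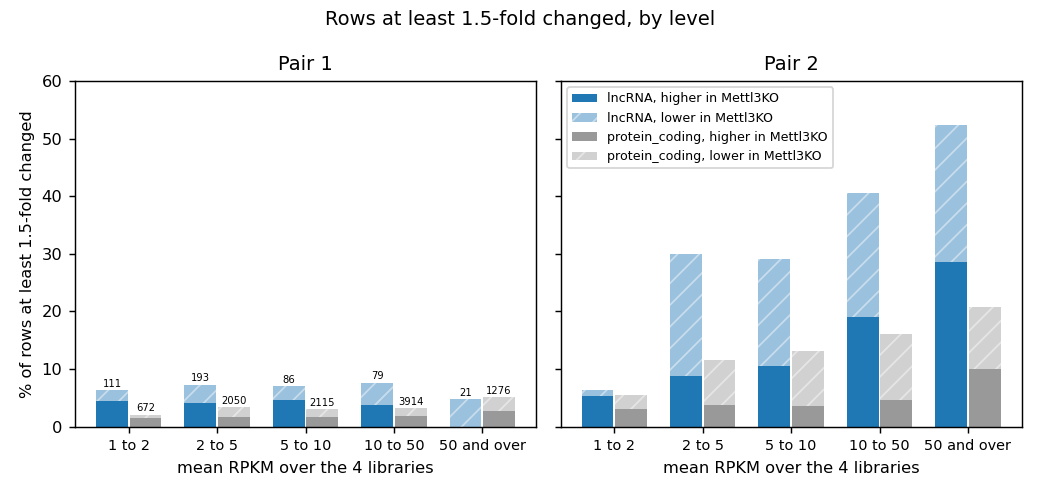
Percentage of rows at least 1.5-fold changed in (RPKM + 1) by band of mean RPKM, in pair 1 (left) and pair 2 (right), with lncRNA loci (blue) left of protein_coding rows (grey), solid for higher and hatched for lower in Mettl3KO. Numbers above the bars of pair 1 are the rows in each band. In pair 2 the lncRNA share is above the protein_coding share in every band. The shares run from 6.31% against 5.51% at 1 to 2 RPKM up to 52.4% against 20.8% at 50 RPKM and over. Fewer lncRNA loci were lower at 1 to 2 RPKM there (0.901% against 2.38%). All rows shown exceed 1 RPKM in both libraries of pair 2, which bounds the ratios of pair 2 at low means. Pair 1 has no such floor, and its lncRNA share is below the protein_coding share in the top band, 4.76% against 5.09%.

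Most of these changes were not shared by the pairs. By any amount, 141 of the 490 loci (28.8%) were higher in Mettl3KO in both pairs, against 19.1% of all rows and 17.1% of weighted protein_coding rows. The 130 loci (26.5%) that were lower in both compare with 30.8% of all rows and 32.5% of weighted protein_coding rows. At 1.5-fold or more in each pair, 6 loci (1.22%) were higher in Mettl3KO, beside 0.731% of all rows and 0.363% of weighted protein_coding rows. At the same fold 2 loci (0.408%) were lower, beside 0.476% of all rows and 0.256% of weighted protein_coding rows. No locus was 1.5-fold higher in pair 1 and 1.5-fold lower in pair 2 (0.493% of all rows, 0.306% of weighted protein_coding rows). The opposite, lower in pair 1 and higher in pair 2, held for 3 (0.612%), beside 0.281% of all rows and 0.118% of weighted protein_coding rows. Across loci the ratios of the pairs correlated with r = 0.14 for the 490 lncRNA loci and r = 0.004 for the 10027 protein_coding rows. Loci of a pair share their libraries, so these correlations are descriptions.

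No lncRNA locus passed the test across all genes. In limma with the pair as a block, 0 of the 490 loci had an adjusted p under 0.05, the lowest being 0.184 for AV051173, and 5 of all 11757 rows passed (0.0425%). At an unadjusted p under 0.05 there were 58 lncRNA loci (11.8%), against 3.91% of weighted protein_coding rows and 5.56% of all rows. Of the 58, 34 were higher in Mettl3KO (2.94% of all rows were) and 24 lower (2.62% of all rows were). The variance used for each locus came mostly from all rows (1 residual and 8.68 added degrees of freedom). A class with a wider spread of ratios can then hold more small p-values without a shared change. The part of the wider spread of lncRNA loci in this share was not tested. Fits without 1 library have no pair block, so a gap in level between the pairs enters them. Their counts are given with the alternatives at the end.

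**Figure D2:**
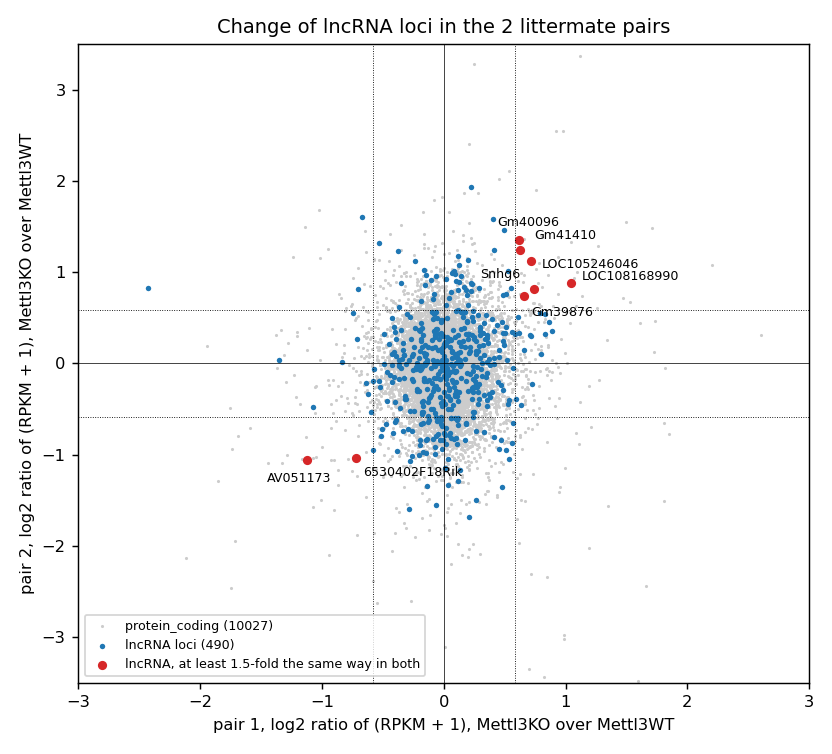
Log2 ratio of (RPKM + 1), Mettl3KO over Mettl3WT, in pair 1 (x axis) and pair 2 (y axis) for 490 lncRNA loci (blue, red where at least 1.5-fold changed the same way in both pairs) over protein_coding rows (grey, of which 3 lie outside the axes). Dotted lines mark 1.5-fold; 6 labelled loci lie in the upper right and 2 in the lower left corner.

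The 2 loci lower by 1.5-fold or more in both pairs were AV051173 and 6530402F18Rik. AV051173 (chr4:116684962-116686022, minus strand, mm10) had 52.4 and 63.1 RPKM in Mettl3KO cells of pairs 1 and 2, against 115 and 133 RPKM in Mettl3WT cells. Both Mettl3KO values lay below both Mettl3WT values, with ratios of -1.13 and -1.06. The log2 change was -1.09 (SE 0.23, limma adjusted p = 0.184). It overlaps 424 bases of Prdx1, including the start shown above. Prdx1 had 768 and 2014 RPKM in Mettl3KO, against 1806 and 2200 RPKM in Mettl3WT, with ratios of -1.23 in pair 1 and -0.13 in pair 2. The gene and the locus thus had like ratios in pair 1 only. The library kit is not stated to keep strand, so reads in the overlap cannot be assigned to either.

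6530402F18Rik (chr2:29245116-29252993, minus strand) had 17 and 5.61 RPKM in Mettl3KO, against 28.7 and 12.6 RPKM in Mettl3WT. Each Mettl3KO value was below its littermate, but the groups overlapped, since Mettl3WT of pair 2 was below Mettl3KO of pair 1 (log2 change -0.88, SE 0.22, limma adjusted p = 0.298). Its ratios within the pairs were -0.72 and -1.04. Fits without 1 library have no pair block, so the gap in level between the pairs enters them. They gave a log2 change of -0.16 without the Mettl3KO library of pair 2 and -0.32 without the Mettl3WT library of pair 1. 6530402F18Rik overlaps Ntng2, which encodes netrin-G2, on the same strand. Ntng2 had 44.5 and 12.4 RPKM in Mettl3KO, against 48.6 and 36.5 RPKM in Mettl3WT, with ratios of -0.12 and -1.49. Reads of the 2 gene models cannot be told apart where they overlap.

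Of the 6 loci higher by 1.5-fold or more in both pairs, LOC108168990 (chr4:156186166-156200199, plus strand) had the highest levels. It had 107 and 24.5 RPKM in Mettl3KO, against 51.4 and 12.9 RPKM in Mettl3WT, with ratios of 1.04 and 0.88 (log2 change 0.96, SE 0.22, limma adjusted p = 0.245). Each Mettl3KO value was above its littermate, while pair 1 was above pair 2 in either genotype. The locus runs over 776 bases of Isg15, the interferon-induced ubiquitin-like modifier, and 11354 bases of Agrn, which encodes agrin, both on the minus strand. Isg15 had 498 and 119 RPKM in Mettl3KO, against 236 and 61.4 RPKM in Mettl3WT, with ratios of 1.07 and 0.94, close to those of LOC108168990 in both pairs. Agrn had 22.4 and 3.01 RPKM in Mettl3KO, against 20.2 and 8.85 RPKM in Mettl3WT, with ratios of 0.14 and -1.30, unlike those of the locus. Without strand, reads of Isg15 within the overlap cannot be told apart from reads of LOC108168990, so its change is uncertain.

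Snhg6 (chr1:9942025-9944118, minus strand), a snoRNA host gene, had 15.4 and 53.8 RPKM in Mettl3KO, against 8.77 and 30.2 RPKM in Mettl3WT. The ratios were 0.74 and 0.81, and pair 2 was above pair 1 in either genotype (log2 change 0.78, SE 0.22, limma adjusted p = 0.426). Mcmdc2, which shares 142 bases with it on the other strand, was at 0.590 RPKM in Mettl3KO and 0.302 RPKM in Mettl3WT of pair 1 and was not listed in pair 2. The overlapping gene was thus at a far lower level than Snhg6.

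Gm39876 (chr2:91932217-91932989, plus strand) had 14.4 and 37.8 RPKM in Mettl3KO, against 8.77 and 22.3 RPKM in Mettl3WT, with ratios of 0.66 and 0.74. It starts 80 bases from the start of Mdk, the gene for the growth factor midkine, on the other strand. Mdk had 2.01 and 4.03 RPKM in Mettl3KO, against 1.20 and 4.10 RPKM in Mettl3WT, so it was higher in Mettl3KO in pair 1 and near equal in pair 2. Dgkz, a diacylglycerol kinase gene that overlaps the locus by 168 bases, had ratios of 0.12 and -0.23.

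The other 3 loci were at low levels. Gm41410 (chr16:3895179-3897314, minus strand) had 6.32 and 6.76 RPKM in Mettl3KO, against 3.75 and 2.29 RPKM in Mettl3WT, so both Mettl3KO values lay above both Mettl3WT values. It lies within Naa60, which encodes an N-terminal acetyltransferase, on the other strand, and Naa60 had ratios of 0.11 and -0.38. Gm40096 (chr3:95523211-95524499, minus strand) had 1.65 and 5.91 RPKM in Mettl3KO, against 0.724 and 1.71 RPKM in Mettl3WT. It is the only one of the 8 loci that overlaps no protein_coding gene, and its start is 2287 bases from that of Ctss, the gene for the antigen-processing protease cathepsin S. Ctss had 806 and 3373 RPKM in Mettl3KO, against 743 and 1638 RPKM in Mettl3WT, with ratios of 0.12 and 1.04, beside 0.62 and 1.35 for Gm40096. LOC105246046 (chr15:102603008-102608006, plus strand) had 1.21 and 4.32 RPKM in Mettl3KO, against 0.345 and 1.44 RPKM in Mettl3WT, and lies within Atf7, a transcription factor gene with ratios of -0.10 and -0.06. The limma adjusted p of the 4 loci of this and the preceding paragraph was 0.204 for LOC105246046, 0.239 for Gm40096, 0.286 for Gm41410 and 0.537 for Gm39876. The rule on (RPKM + 1) depends on the pseudocount at such levels, and with 0.1 in place of 1 RPKM the counts were 15 higher and 6 lower.

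**Figure D3:**
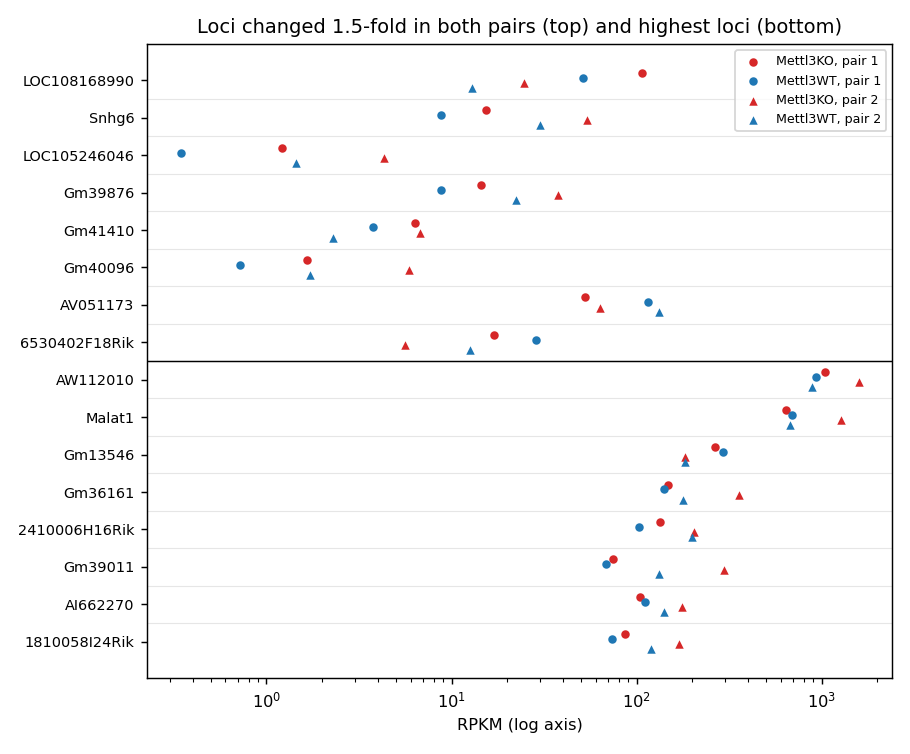
RPKM (log axis) in each library, Mettl3KO in red and Mettl3WT in blue, with circles for pair 1 and triangles for pair 2. Above the line are the 8 loci changed at least 1.5-fold the same way in both pairs, where both red symbols of a locus lie on the same side of their blue partners; below it are the 8 loci with the highest mean, where AW112010 reached 1581 RPKM in Mettl3KO of pair 2.

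The loci at the highest levels included Malat1 and the LPS- and interferon-induced AW112010, which in mouse macrophages is reported to be translated from a noncanonical reading frame. AW112010 had 1047 and 1581 RPKM in Mettl3KO, against 935 and 883 RPKM in Mettl3WT. Malat1, which resides in nuclear speckles, had 643 and 1266 RPKM in Mettl3KO, against 692 and 673 RPKM in Mettl3WT. The ratios in pair 1 were 0.16 for AW112010 and -0.11 for Malat1, and in both loci Mettl3KO of pair 2 stood above the other 3 libraries. The log2 changes were 0.50 (SE 0.27, limma adjusted p = 0.969) for AW112010 and 0.40 (SE 0.29, limma adjusted p = 0.994) for Malat1.

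The same shape was seen in Gm36161 and Gm39011. Gm36161 had 148 and 358 RPKM in Mettl3KO, against 140 and 177 RPKM in Mettl3WT. Gm39011, which overlaps the lactate dehydrogenase gene Ldha on the other strand, had 74.3 and 297 RPKM in Mettl3KO, against 68.4 and 131 RPKM in Mettl3WT. Ldha had ratios of 0.002 and 0.06, beside 0.12 and 1.17 for Gm39011, so the high value of pair 2 was not shared by the gene it overlaps. Gm13546, which overlaps Cytip, an adaptor gene of mature dendritic cells, had 264 and 183 RPKM in Mettl3KO, against 292 and 182 RPKM in Mettl3WT.

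The remaining loci of the 8 highest had smaller differences. 2410006H16Rik had 134 and 205 RPKM in Mettl3KO, against 103 and 199 RPKM in Mettl3WT. AI662270 had 105 and 176 RPKM in Mettl3KO, against 110 and 141 RPKM in Mettl3WT. 1810058I24Rik, which RefSeq lists as the gene of the mitochondrial microprotein Stmp1, had 86.2 and 170.3 RPKM in Mettl3KO, against 73.2 and 119 RPKM in Mettl3WT. None of the 8 highest loci had an adjusted p below 0.889, the value of Gm39011.

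In a list of 7 lncRNAs drawn up as nuclear or chromatin-associated, which also holds the mainly cytoplasmic 2900097C17Rik and 1700020I14Rik, the median ratio was -0.13 in pair 1 and -0.02 in pair 2, beside -0.02 and -0.08 over all rows tested. Neat1, the scaffold of paraspeckles, had 116 and 30.8 RPKM in Mettl3KO, against 141 and 94.99 RPKM in Mettl3WT. Its ratio was -0.28 in pair 1 and -1.60 in pair 2, and Mettl3KO of pair 2 was the lowest library (log2 change -0.94, SE 0.31, limma adjusted p = 0.598). Neat1 and Malat1, which lie next to each other on chromosome 19, thus had opposite ratios in pair 2. 2900097C17Rik, known as Norad, a cytoplasmic RNA that binds Pumilio proteins, had 59.6 and 37.5 RPKM in Mettl3KO, against 65.3 and 50.6 RPKM in Mettl3WT. 1700020I14Rik, known as Cyrano, which in mouse directs the decay of miR-7, had 24.8 and 13.9 RPKM in Mettl3KO, against 31.5 and 15.7 RPKM in Mettl3WT. These 2 were lower in Mettl3KO in each pair by ratios between -0.42 and -0.13. Tug1 had ratios of -0.16 and -0.02, and Hotairm1, a transcript of the HoxA cluster, had 8.04 and 12.1 RPKM in Mettl3KO, against 5.33 and 6.79 RPKM in Mettl3WT. No member passed the test, and 2 of the 7 had an unadjusted p under 0.05, beside 5.56% of all rows, Hotairm1 being higher and Neat1 lower in Mettl3KO. In fits without the pair block, the log2 change of Neat1 was -1.88 without the Mettl3KO library of pair 1 and 0.002 without that of pair 2. The gap in level between the pairs enters both values.

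snoRNA host genes are spliced transcripts whose introns give rise to snoRNAs, the guides of ribosomal RNA modification. All 15 in both tables were tested, and their median ratio was -0.02 in pair 1 and 0.38 in pair 2. In pair 2, 5 of the 15 were at least 1.5-fold higher in Mettl3KO and 0 lower, beside 6.46% and 10.9% of all rows, while 1 was higher and 0 lower in pair 1. The 5 were Zfas1, Snhg6, Epb41l4aos, Snhg8 and Snhg3. Zfas1, which starts 88 bases from Znfx1 on the other strand, had 84.2 and 147 RPKM in Mettl3KO, against 57.0 and 82.5 RPKM in Mettl3WT (log2 change 0.69, SE 0.23, limma adjusted p = 0.607). Its change ran between 0.29 and 1.09 on leaving out 1 library, in fits without the pair block. Znfx1, an interferon-induced gene of antiviral defence, had ratios of 0.45 and -0.40, beside 0.55 and 0.83 for Zfas1. Snhg8 had 15.4 and 42.4 RPKM in Mettl3KO, against 14.9 and 25.5 RPKM in Mettl3WT, and Mettl3KO of pair 2 was the highest library in both Zfas1 and Snhg8. Snhg3 had 9.52 and 28.3 RPKM in Mettl3KO, against 8.55 and 14.1 RPKM in Mettl3WT. Epb41l4aos had 13.4 and 51.3 RPKM in Mettl3KO, against 14.1 and 25.99 RPKM in Mettl3WT.

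Other hosts differed little or in opposite ways. Gas5, a host gene also known as an RNA of growth arrest, had 28.6 and 57.0 RPKM in Mettl3KO, against 34.7 and 47.3 RPKM in Mettl3WT. Snhg1 had 28.1 and 52.1 RPKM in Mettl3KO, against 29.2 and 39.9 RPKM in Mettl3WT. Snhg15 had 59.0 and 68.1 RPKM in Mettl3KO, against 49.99 and 85.1 RPKM in Mettl3WT, and was the 1 host with a ratio below -0.3 in pair 2. Of the 5 hosts with a pyrimidine run at a start, the ratios in pair 2 were 0.72 for Snhg8, 0.48 for Snhg12, 0.26 for Gas5, 0.18 for Snhg17 and -0.04 for Snhg7. A relation between the start and the ratio was not tested. The 77 ribosomal protein genes, measured in the same libraries, had medians of 0.04 in pair 1 and 0.46 in pair 2. No host passed the test, and the 2 with an unadjusted p under 0.05, Snhg6 and Zfas1, were higher in Mettl3KO.

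**Figure D4:**
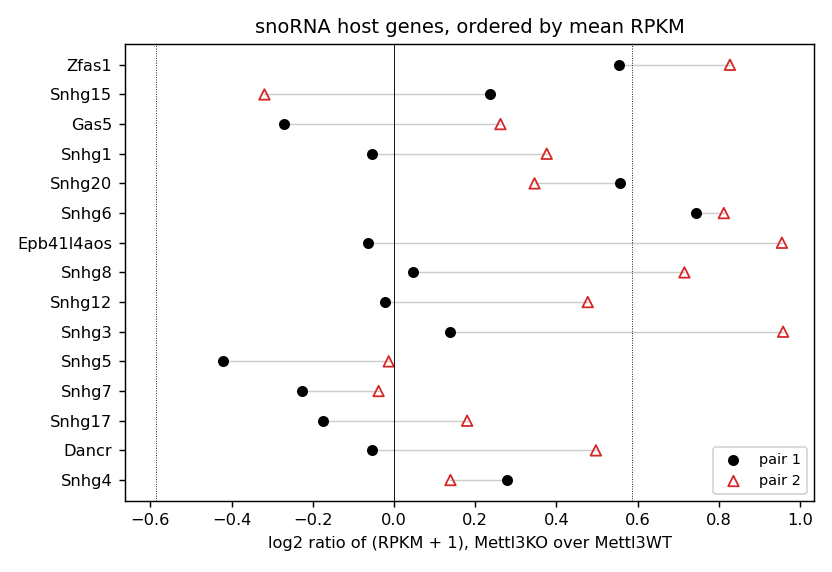
Log2 ratio of (RPKM + 1), Mettl3KO over Mettl3WT, of the 15 snoRNA host genes in pair 1 (filled circles) and pair 2 (open triangles), ordered from the highest mean RPKM down, with dotted lines at 1.5-fold. Only Snhg6 lies beyond 1.5-fold in pair 1, and 5 genes do in pair 2, all on the side of Mettl3KO.

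The microRNA host list held 5 loci, and none passed the test. Mir155hg had 61.0 and 12.9 RPKM in Mettl3KO, against 74.0 and 28.3 RPKM in Mettl3WT, with ratios of -0.27 and -1.07 (log2 change -0.67, SE 0.26, limma adjusted p = 0.763). Each Mettl3KO value was below its littermate, and the difference between the pairs within a genotype was larger than that between genotypes. Mir22hg had 28.2 and 25.4 RPKM in Mettl3KO, against 32.0 and 26.1 RPKM in Mettl3WT. Dleu2, the transcript that carries miR-15a and miR-16, had 5.97 and 9.24 RPKM in Mettl3KO, against 5.06 and 7.53 RPKM in Mettl3WT. Mir17hg, the precursor of the miR-17 cluster that favours proliferation, had 3.86 and 2.27 RPKM in Mettl3KO, against 3.11 and 1.21 RPKM in Mettl3WT. Of the mature microRNAs of that cluster, only miR-92a-1-5p and miR-92a-3p lie inside the deposited position of Mir17hg. Dleu2 and Mir17hg were thus higher in Mettl3KO in each pair by ratios of 0.20 to 0.57. Mirt2, which stood in this list by its name and is an LPS-induced lncRNA with no known microRNA product, had 6.80 and 6.96 RPKM in Mettl3KO, against 6.22 and 6.57 RPKM in Mettl3WT.

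Of 8 lncRNAs known from LPS-stimulated or immune cells, 3 were at least 1.5-fold higher and 3 at least 1.5-fold lower in Mettl3KO in pair 2, and 0 and 1 in pair 1. Over all rows the shares were 6.46% and 10.9% in pair 2 and 2.57% and 1.86% in pair 1. The 3 higher in pair 2 were AW112010, Malat1 and U90926, and the 3 lower were Neat1, Mir155hg and A530040E14Rik. F630028O10Rik on chromosome X, which carries the myeloid microRNA miR-223, had 17.5 and 17.5 RPKM in Mettl3KO, against 12.5 and 15.8 RPKM in Mettl3WT (log2 change 0.30, SE 0.22, limma adjusted p = 0.994). Its levels spanned less than 1.5-fold over the 4 libraries. U90926, which is induced by Toll-like receptor ligands in mouse macrophages, had 10.6 and 5.95 RPKM in Mettl3KO, against 17.6 and 1.29 RPKM in Mettl3WT. It was lower in Mettl3KO in pair 1 and higher in pair 2 by 1.5-fold or more, with ratios of -0.68 and 1.60. A530040E14Rik had 19.5 and 9.68 RPKM in Mettl3KO, against 13.0 and 18.6 RPKM in Mettl3WT, with ratios of 0.56 and -0.88, and it overlaps 6 protein_coding gene models.

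Loci with opposite ratios were ranked by the smaller of their absolute ratios, and the first 5 comprised U90926, A530040E14Rik, LOC102634683, Gm38521 and Gm20636. Other loci with opposite ratios had a wider gap between the pairs than Gm20636 but a smaller ratio in 1 pair. LOC102634683, within the endothelin-converting enzyme gene Ece1, had 0.274 and 14.1 RPKM in Mettl3KO, against 5.87 and 7.52 RPKM in Mettl3WT. Its ratios of -2.43 and 0.82 were the most unequal among these 5 loci, and Ece1 had ratios of 0.68 and -0.14. Gm38521, whose start is 91 bases from that of the translation factor gene Eif3m, had 1.37 and 4.26 RPKM in Mettl3KO, against 2.87 and 1.99 RPKM in Mettl3WT. Eif3m itself had ratios of -0.08 and 0.09. Gm20636, within the lysosome-related organelle gene Hps4, had 4.69 and 2.33 RPKM in Mettl3KO, against 2.83 and 4.23 RPKM in Mettl3WT.

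Antisense and divergent transcripts recognised by name numbered 27, of which 26 were tested. In pair 1, 1 was at least 1.5-fold higher and 1 lower in Mettl3KO, in pair 2 there were 4 and 3, and none changed that much the same way in both. The shares of 3.85% and 3.85% in pair 1 and of 15.4% and 11.5% in pair 2 compare with 2.57%, 1.86%, 6.46% and 10.9% of all rows, so the share lower in pair 2 was near that of all rows. Toporsos, which starts 262 bases from the start of the ubiquitin ligase gene Topors and overlaps it, had 6.99 and 24.5 RPKM in Mettl3KO, against 5.97 and 10.7 RPKM in Mettl3WT. Its ratios of 0.20 and 1.13 compare with 0.09 and 0.41 for Topors. Rab10os had 17.3 and 20.3 RPKM in Mettl3KO, against 19.9 and 16.7 RPKM in Mettl3WT, and its ratios of -0.19 and 0.26 had the signs of those of the vesicle transport gene Rab10, -0.33 and 0.20. Scpep1os had 17.02 and 6.31 RPKM in Mettl3KO, against 16.6 and 9.38 RPKM in Mettl3WT, and its ratios of 0.04 and -0.50 likewise had the signs of those of the carboxypeptidase gene Scpep1, 0.20 and -0.43.

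The ratios of loci were also set against those of the genes beside them over the class. Of the 490 tested loci, 311 (63.5%) overlapped a protein_coding gene of the first table, against 19.8% of protein_coding rows that overlapped another, although lncRNA loci were shorter, with a median span of 5.18 kb against 21.6 kb. The overlap was on the other strand for 278 loci and on the same strand for 33. Among the 278, the ratio of the locus correlated with that of the nearest protein_coding gene listed in both tables. The r was 0.44 in pair 1 and 0.34 in pair 2, and among the 33 it was 0.34 and 0.47. Among the 183 loci that start within 2 kb of a protein_coding start on the other strand r was 0.45 and 0.33. Among the 179 loci without overlap r was 0.15 and 0.24. Among the 93 loci more than 10 kb from any protein_coding gene listed in both tables it was 0.13 and 0.10. These 93 are not all isolated, since 2810025M15Rik overlaps Rasal2, a gene outside that listing. These values are descriptions over loci that share libraries, some of them neighbours of the same gene. The part that reads of the overlapping gene have in them was not tested. The 179 loci without overlap had median ratios of 0.02 and 0.13, and 1 of them was at least 1.5-fold changed the same way in both pairs.

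**Figure D5:**
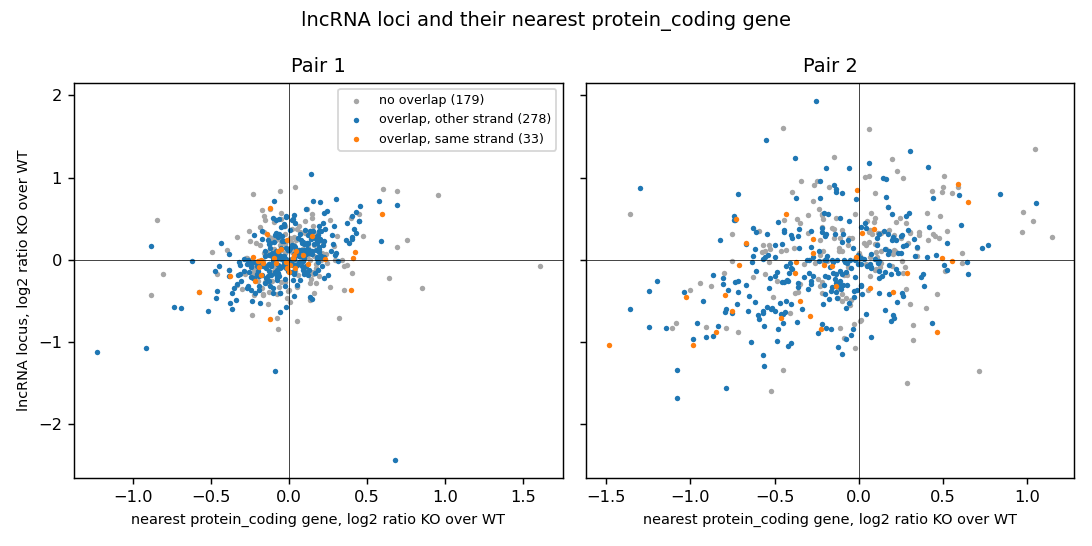
Log2 ratio of (RPKM + 1), Mettl3KO over Mettl3WT, of each tested lncRNA locus (y axis) against that of its nearest protein_coding gene (x axis) in pair 1 (left) and pair 2 (right). The nearest gene is taken from those listed in both tables. Loci that overlap a protein_coding gene on the other strand (blue, 278) had r = 0.44 and 0.34 with the neighbour, the 33 that overlap on the same strand (orange) r = 0.34 and 0.47, and the 179 without overlap (grey) r = 0.15 and 0.24.

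Most of the class has a symbol of provisional form. Symbols of Gm and digits, ending in Rik, or of AI, AU, AW, BB, BC or BE and digits made up 364 of the 502 loci. Some of these have roles named above, such as 2900097C17Rik and 1700020I14Rik, while AV051173 falls outside the rule. Of the 364, 355 were tested, with median ratios of 0.03 and -0.06. Of these 355, 3 (0.845%) were at least 1.5-fold higher and 1 (0.282%) was lower in Mettl3KO in both pairs, near the 0.731% and 0.476% of all rows. The 66 tested models named by a LOC number had medians of 0.04 and 0.03, and 2 (3.03%, against 0.731% of all rows) were at least 1.5-fold higher in both pairs, LOC108168990 and LOC105246046. On chromosome X, where Xist differed between the libraries of pair 1, 8 of 9 loci were tested, and none was 1.5-fold changed in pair 1. Firre, an X-linked lncRNA of nuclear organisation, had 6.32 and 3.79 RPKM in Mettl3KO, against 6.29 and 3.83 RPKM in Mettl3WT, so its levels differed between the pairs and hardly between the genotypes. Gm39520 had 2.37 and 4.62 RPKM in Mettl3KO, against 3.04 and 5.31 RPKM in Mettl3WT, and 9530027J09Rik had 3.82 and 3.14 RPKM in Mettl3KO, against 3.89 and 5.33 RPKM in Mettl3WT.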

How the data were processed

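Polyadenylated RNA of 4 libraries was measured (Mettl3KO and Mettl3WT, 2 each). According to the submitters' processing notes and the study's methods, the authors aligned reads to mm10 with TopHat2 2.0.14 and computed RPKM with Cuffnorm, and deposited 1 table per littermate pair. The header does not name the unit. No source used here gives the gene annotation or strand setting. The first table lists 23690 rows and the second 11835, each above 1 RPKM in both libraries. The deposited log2 fold changes, p-values and q-values compare 1 library with 1 library and were not used. Groups came from the sample titles. Depth, from whole-read steps of single-exon RNAs, was 33600000 and 30940000 reads in Mettl3KO and 35290000 and 32320000 reads in Mettl3WT, with 99.8% to 100.0% of the values within 0.1 reads of whole.

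Tables were joined on gene and position. The test was limma 3.58.1 (R 4.3.3), two-sided, with intensity trend on log2(RPKM + 1), genotype and pair as terms, rows with a mean of at least 1 RPKM, and Benjamini-Hochberg adjustment over 11757 rows. It leaves 1 residual degree of freedom, to which 8.68 were added from all rows. Pairing comes from the littermates, and deviations of same-numbered libraries correlated with r = 0.70. The test was checked on simulated data, whose changes were larger than the log2 change of any locus named here. Noise was equal in all simulated rows, so the check does not cover changes and spreads like those reported. Protein_coding values were weighted to the lncRNA mix of 5 bands (1 to 2, 2 to 5, 5 to 10, 10 to 50 and at least 50 RPKM).

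Named loci were those past the test, those 1.5-fold changed the same way in both pairs, the 8 highest, the 4 highest of each list, and 5 with opposite ratios. Members and lists were chosen with earlier results of these data known. A count of the m6A core sequence per transcript was void, since 307 of 502 loci (61.2%) matched a transcript by symbol, under the 80% set. Alternatives changed the block, trend, pseudocount, centring, filters, fold and libraries.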

Additional observations from a re-analysis of the deposited data

Results flagged for a closer look

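Rows typed lncRNA that stood in the first table only (2964) entered no comparison above. Of these, 2 were at 5 RPKM or more in Mettl3KO of pair 1 and at least 3-fold above Mettl3WT of the same pair, and were picked out as signal outside the main comparison. Xist was at 37.8 RPKM in Mettl3KO and 0.0502 RPKM in Mettl3WT. The Y-linked genes named above went the other way, so this difference cannot be told apart from one of sex. D730005E14Rik (chr15:79889532-79893138) was at 5.04 RPKM in Mettl3KO and 0.358 RPKM in Mettl3WT. Each is 1 library against 1 library, with no value in pair 2. The groups of 2 libraries were too small to test for a library that stands apart.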

How the results depend on the processing

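No lncRNA locus passed limma under any alternative that kept all 4 libraries. With no replicate block, 0 of all rows passed and 6 lncRNA loci had an unadjusted p under 0.05. Of all rows, 1 passed with a pseudocount of 0.1 RPKM and 1 with each pair centred on its median, against 5. Leaving out 1 library, without the block, gave 0 to 8 lncRNA loci and 1 to 118 of all rows, where a genotype left with 1 library is assumed to vary like the other.

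Of loci changed 1.5-fold in both pairs, a pseudocount of 0.1 RPKM left 15 higher and 6 lower, a mean of at least 5 RPKM left 3 higher, and loci with no overlap left 1 higher and 0 lower, against 6 and 2. At 2-fold there were 0 higher and 1 lower, and at the single fold tried below 1.5 there were 29 and 17. The median ratio in pair 2 was 0.13 over loci with no overlap and 0.065 with the pairs centred, against -0.01, so its sign is not stable. Leaving out rows of chromosomes X and Y, added after seeing the data, kept all these counts. The cause of these shifts was not tested.

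Of 40 named loci, 4 changed sign when pairs were centred: Snhg15 to 0.006, Gas5 to 0.043, Firre to 0.044 and Gm20636 to 0.008. The fits without 1 library have no pair block, so a gap in level between the pairs enters the ranges below. LOC108168990 and Snhg6, for instance, turn sign there although each was higher in Mettl3KO in both pairs. Log2 changes turned sign or passed the threshold on leaving out 1 library in 31, with these ranges: 1700020I14Rik -0.73 to 0.23, 1810058I24Rik -0.12 to 0.86, 2410006H16Rik -0.26 to 0.68, 2900097C17Rik -0.60 to 0.053, A530040E14Rik -0.63 to 0.31, AI662270 -0.25 to 0.49, Dleu2 -0.044 to 0.51, Epb41l4aos -0.48 to 1.37, Firre -0.31 to 0.30, Gas5 -0.49 to 0.48, Gm13546 -0.41 to 0.27, Gm20636 -0.42 to 0.35, Gm36161 -0.092 to 1.18, Gm38521 -0.52 to 0.63, Gm39011 -0.35 to 1.64, Gm39520 -0.58 to 0.15, Gm40096 0.29 to 1.68, LOC102634683 -2.59 to 0.98, LOC105246046 0.28 to 1.55, LOC108168990 -0.08 to 2.002, Malat1 -0.087 to 0.89, Mir155hg -1.75 to 0.40, Mir22hg -0.25 to 0.035, Neat1 -1.88 to 0.002, Rab10os -0.08 to 0.15, Scpep1os -0.88 to 0.42, Snhg1 -0.27 to 0.60, Snhg15 -0.42 to 0.34, Snhg6 -0.094 to 1.65, Toporsos -0.17 to 1.502, U90926 -1.05 to 1.97. The other 9 kept sign and side: 6530402F18Rik -1.605 to -0.16, 9530027J09Rik -0.505 to -0.13, AV051173 -1.23 to -0.96, AW112010 0.20 to 0.80, F630028O10Rik 0.14 to 0.46, Gm39876 0.031 to 1.36, Gm41410 0.67 to 1.20, Mirt2 0.058 to 0.13, Zfas1 0.29 to 1.09. Mettl3 and other loci with a mean under 5 RPKM have no value under that filter. Depth limits loci near 1 RPKM, and 2 pairs limit every test.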

Other observations

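Loci outside the naming rule, chosen after their values were seen, are given here as values. LOC108168903, within the NF-kB subunit gene Nfkb1 on the other strand, had 5.66 and 11.2 RPKM in Mettl3KO, against 3.72 and 3.45 RPKM in Mettl3WT (limma adjusted p = 0.366). Nfkb1 had ratios of 0.03 and -0.55, beside 0.50 and 1.46 for the locus. LOC102636309, which overlaps the glutathione synthetase gene Gss on the other strand, had 0.527 and 1.09 RPKM in Mettl3KO, against 2.21 and 1.90 RPKM in Mettl3WT (limma adjusted p = 0.376). Gss had 5.40 and 14.8 RPKM in Mettl3KO, against 11.0 and 16.8 RPKM in Mettl3WT, with ratios of -0.91 and -0.18, beside -1.07 and -0.47 for the locus.

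The 2964 lncRNA rows of the first table only had median levels of 0.155 RPKM in Mettl3KO and 0.118 RPKM in Mettl3WT, and 199 of them were above 1 RPKM in both libraries of pair 1. RefSeq lists 9 of the 502 loci as protein_coding, 1810058I24Rik among them.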
